A study of Mus musculus with 11 samples.

Results

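The genes described here mark 2 cell types of the testis wall and interstitium. They are 6 smooth muscle genes, Acta2, Myh11, Cnn1, Des, Tagln and Actg2, which include the markers of peritubular myoid cells, and 4 endothelial genes, Pecam1, Cdh5, Vwf and Kdr. They were chosen by name, with earlier results of these data known, and all 10 were found among the 24411 genes of the count table. Their levels were read in whole decapsulated testes of 20-week-old mice without treatment. The groups were 4 samples of wild-type (C57Bl/6J) mice (WT) and 4 of mice with a global Aco1 knockout (Irp1-/-). The last group was 3 samples of mice with a global Ireb2 knockout (Irp2-/-). Aco1 encodes iron regulatory protein 1 and Ireb2 encodes iron regulatory protein 2. The Irp1-/- mice carried the allele Aco1 tm1Roua on the C57Bl/6J background and were bred with WT littermates from heterozygous parents. The source, allele and controls of the Irp2-/- line are not given in the sources used here, so a difference between this line and the others in ancestry cannot be told apart from the loss of Ireb2. Both deletions were global and not limited to myoid or endothelial cells. The labels number the samples of a group without stating that each was a separate mouse, so the p-values measure the spread between these samples.

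Peritubular myoid cells form a thin contractile sleeve around each seminiferous tubule, and their contractions push sperm towards the rete testis. They hold the actins, myosin, calponin, desmin and transgelin of smooth muscle, as do the muscle cells of the testicular arterioles. Endothelial cells line the vessels of the interstitium between the tubules. They are known by adhesion proteins at their junctions (Pecam1, Cdh5), by the clotting protein they store (Vwf) and by the receptors through which they sense vascular endothelial growth factor, or VEGF (Kdr). In RNA from a whole organ, fewer cells of a type and less RNA per cell cannot be told apart.

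The total count per sample was 16358055 to 18257228 in WT, 15902473 to 22451417 in Irp1-/- and 18519415 to 22349732 in Irp2-/- testes. All 15 pairs of replicates within a genotype differed by more than sampling noise (chi-square divided by its degrees of freedom, 2.003 to 7.05). The targeted genes fell in their own lines, Aco1 by a log2 fold change of -0.45 in Irp1-/- against WT (adjusted p = 0.0158, edgeR) and Ireb2 by -1.16 in Irp2-/- against WT (adjusted p = 2.84e-13, edgeR). The Aco1 call was lost when Irp1-/- replicate 6 or WT replicate 2, 3 or 4 was left out, with an adjusted p in edgeR between 0.0520 and 0.0750. Sample labels carried a letter of unstated meaning, R for Irp1-/- replicate 6 and L for all others. Of the genes that mark the epididymis, Lcn5 and Spint4 had no count in any sample, and the 8 marker genes together reached at most 0.565 CPM, where CPM is the count in relation to the sample's total, scaled by edgeR's composition factors.

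The members Acta2 and Actg2 encode smooth muscle actins of nearly the same protein sequence, so the coding stretch where they are most alike is shown first, to let a reader see how far the reads can tell them apart. The windows below are 50 bases long, as were the reads, and are written 5′ to 3′ from the GENCODE M21 transcripts on GRCm38. Capitals mark the bases at which the genes differ.
Acta2, chr19:34243345-34243394, minus strand, coding bases 913 to 962: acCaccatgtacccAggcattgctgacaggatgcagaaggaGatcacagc
Actg2, chr6:83516296-83516345, minus strand, coding bases 910 to 959: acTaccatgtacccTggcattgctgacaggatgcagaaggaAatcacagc
In this window 3 bases differed, the fewest of 730 windows compared within single coding exons, and the median was 8. Over 1131 aligned coding bases, 955 (84.4%) were identical, with no identical run longer than 29 bases. No stretch of 50 bases in the Actg2 transcripts was found in a transcript of another gene, and for Acta2 the share was 0.326%. A 50-base read with no mismatch could therefore be placed on the right one of these genes in nearly all positions. The share of such stretches found in other genes was 0 for Cnn1, Cdh5 and Kdr and between 0.340% and 4.61% for Myh11, Des, Pecam1 and Vwf. For Tagln it was 58.3%, mostly with Gm48529, an annotated gene that has no line in the count table. With genes that have a line in that table the share for Tagln was 2.98%. Matches on either strand were included and the place of Gm48529 was not compared with that of Tagln. The Tagln counts may therefore depend on how the authors' tool treated reads with several matches, which was not tested.

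The 10 genes lie apart from each other on GRCm38. Of the smooth muscle genes, Acta2 is at chr19:34241090-34255590, Myh11 at chr16:14194535-14291372, Cnn1 at chr9:22099216-22109630, Des at chr1:75360329-75368579, Tagln at chr9:45929619-45936058 and Actg2 at chr6:83512905-83536265. Of the endothelial genes, Pecam1 is at chr11:106654217-106750628, Cdh5 at chr8:104101625-104144511, Vwf at chr6:125546774-125686679 and Kdr at chr5:75932827-75978458. Tagln and Cnn1 share chromosome 9 with the deleted gene Ireb2, at distances of 8.93 and 32.8 Mb, and no member shares chromosome 4 with Aco1.

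Divided by the length of their exons, the members spanned a wide range of levels, and smooth muscle genes held the first 4 places. Actg2, the gamma actin of smooth muscle that mouse spermatids are also known to transcribe, had a mean of 150.3 CPM per kb over the 11 samples. It was followed by Acta2, the alpha actin by which myoid cells are usually recognised, at 19.8 CPM per kb. The mean of Actg2 was 7.59 times that of Acta2, and every one of the 11 samples had this order. Tagln, an actin-binding protein of contractile cells, had 5.42 CPM per kb and Myh11, the heavy chain of smooth muscle myosin, had 4.54 CPM per kb. These last ranges overlapped, with Tagln the higher in 10 of 11 samples. Then came Cdh5 (VE-cadherin) at 2.01, Des (desmin, the intermediate filament of muscle) at 1.57, Cnn1 (calponin, which binds actin and slows myosin) at 1.37 and Vwf (von Willebrand factor) at 1.14 CPM per kb. Each of these 4 overlapped its neighbour in range. Pecam1 (CD31) had 0.521 CPM per kb and Kdr (VEGF receptor 2) had 0.319 CPM per kb, and neither range touched that of the gene above it.

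**Figure D1:**
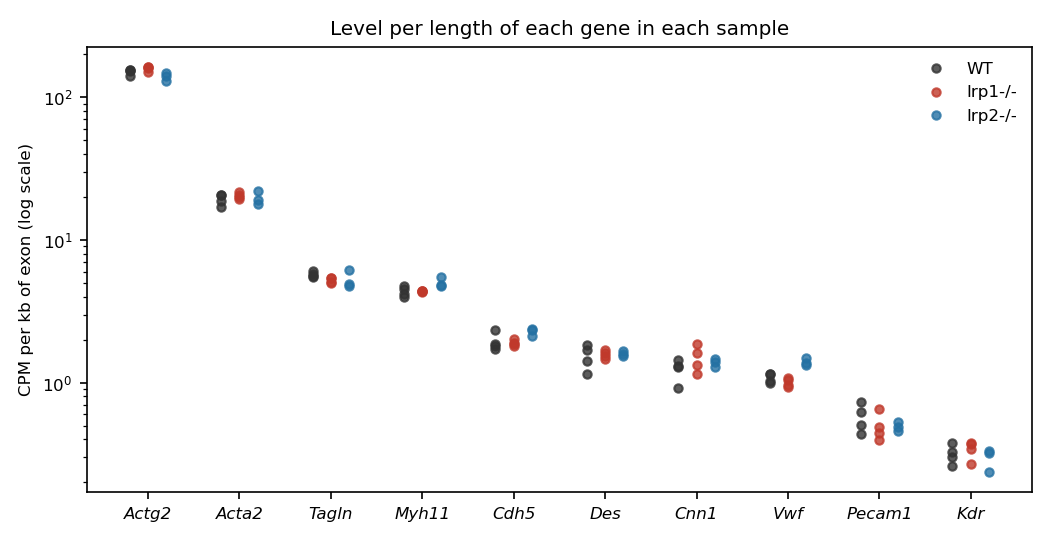
Level of each gene in each sample as CPM per kb of exon, on a log axis, with genes ordered by their mean and samples coloured by genotype (4 WT, 4 Irp1-/-, 3 Irp2-/-). Actg2 stands highest at a mean of 150.3 CPM per kb, Acta2 follows at 19.8, and Kdr is lowest at 0.319.

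The spread of the members over samples followed their depth only in part. Counts per sample ranged from 38 for Kdr to 5606 for Actg2. The coefficient of variation over the 11 samples was 13.6% from counting alone and 15.04% as measured for Kdr, and 7.003% against 8.47% for Tagln, so these genes varied little beyond counting error. The measured value was well above counting error for Vwf, at 15.9% against 5.37%, and for Actg2, at 6.97% against 1.505%. These values pool the genotypes. Within WT, Irp1-/- and Irp2-/- testes the measured value was 7.59%, 6.93% and 5.77% for Vwf, and 4.45%, 3.89% and 6.46% for Actg2. Values of Pecam1, Cnn1, Kdr and Des rest on 38 to 131 counts per sample, and a change of small size in them was not detectable at this depth.

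Among the smooth muscle genes, Acta2 had 37.3, 41.5, 45.4 and 45.4 CPM in WT, 42.5, 44.2, 45.6 and 47.9 CPM in Irp1-/- and 38.9, 41.6 and 48.3 CPM in Irp2-/- testes. The 3 groups overlapped, and WT replicate 1 was the lowest of all. Myh11 had 30.3, 31.8, 34.2 and 36.2 CPM in WT, between 32.7 and 33.5 CPM in all 4 Irp1-/- samples, and 36.0, 36.6 and 41.5 CPM in Irp2-/- testes. The Irp1-/- samples thus lay within a narrow band inside the WT range, and all Irp2-/- samples lay above that band. Tagln had 10.9, 11.02, 11.5 and 12.02 CPM in WT, 9.99, 10.1, 10.8 and 10.8 CPM in Irp1-/- and 9.40, 9.76 and 12.3 CPM in Irp2-/- testes. All Irp1-/- values of Tagln were below all WT values, while the Irp2-/- samples held both its lowest and its highest value.

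Actg2 had 219, 237, 240.4 and 242 CPM in WT, 233, 250.0, 253 and 253 CPM in Irp1-/- and 201, 218 and 229 CPM in Irp2-/- testes. All Irp1-/- values were above all Irp2-/- values, and the WT values overlapped with both. Cnn1 had 2.49 to 3.92 CPM in WT, 3.15 to 5.09 CPM in Irp1-/- and 3.54 to 4.03 CPM in Irp2-/- testes. Des had 4.30 to 6.89 CPM in WT, 5.50 to 6.35 CPM in Irp1-/- and 5.80 to 6.23 CPM in Irp2-/- testes. For Cnn1 and Des every pair of groups overlapped.

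Among the endothelial genes, Vwf, which carries clotting factor VIII and tethers platelets to injured vessels, had 15.9, 16.5, 18.4 and 18.4 CPM in WT. It had 14.9, 15.6, 16.6 and 17.4 CPM in Irp1-/- and 21.3, 21.9 and 23.8 CPM in Irp2-/- testes. All 3 Irp2-/- samples were above all 8 others. Cdh5 had 7.27, 7.56, 7.78 and 9.77 CPM in WT, 7.56, 7.84, 7.97 and 8.49 CPM in Irp1-/- and 8.89, 9.84 and 9.93 CPM in Irp2-/- testes. WT replicate 3 was the sample of WT that reached into the Irp2-/- range for Cdh5. Pecam1 had 2.70 to 4.53 CPM in WT, 2.45 to 4.04 CPM in Irp1-/- and 2.84 to 3.27 CPM in Irp2-/- testes, and Kdr had 2.37 to 3.39, 2.41 to 3.40 and 2.13 to 3.01 CPM in the same order. For these 2 genes every pair of groups overlapped.

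**Figure D2:**
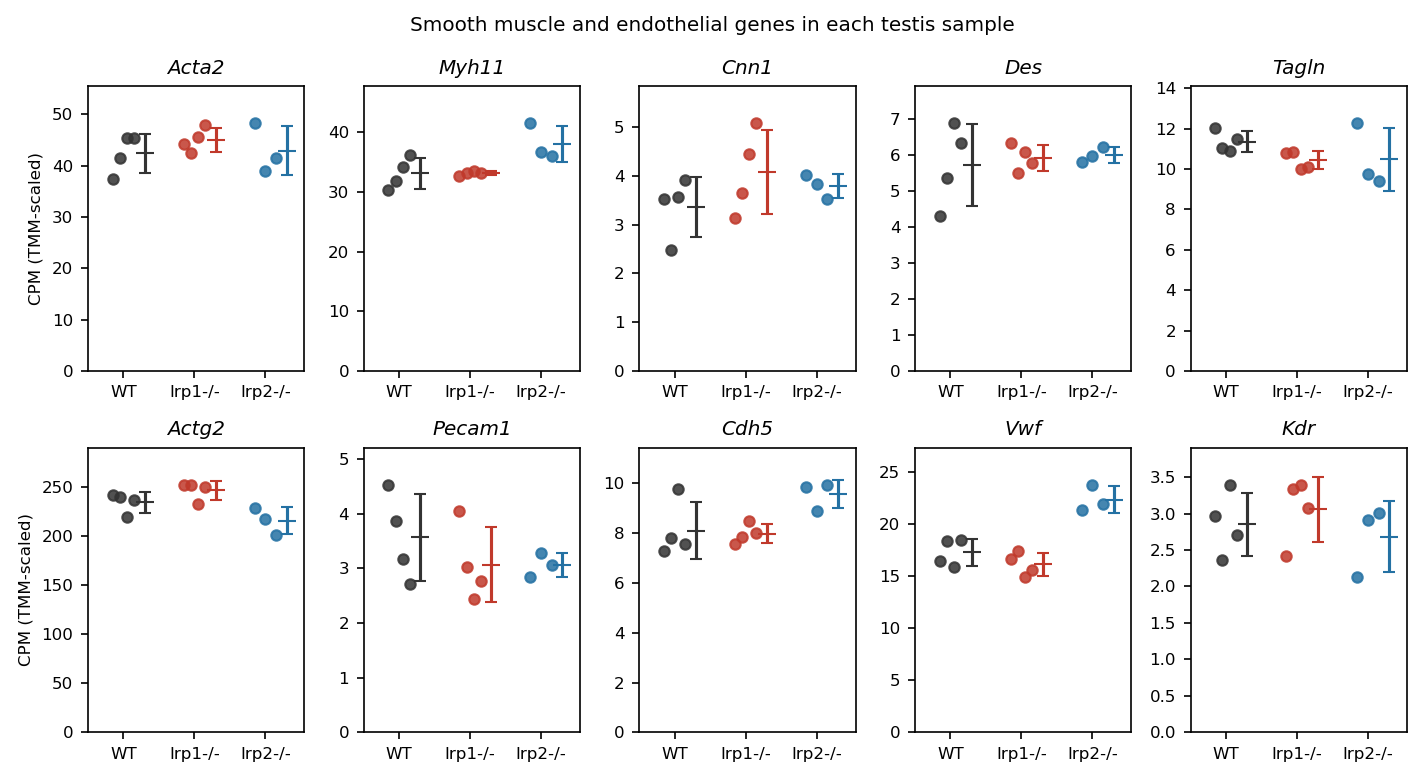
Level in CPM, the count in relation to the sample's total, of the 10 genes in each sample (points) with the mean and SD of each genotype (horizontal line and bar; n = 4 WT, 4 Irp1-/-, 3 Irp2-/-). The Irp2-/- samples of Vwf lie between 21.3 and 23.8 CPM, above the range of 14.9 to 18.4 CPM of the other samples, while most other panels overlap.

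The first comparison asks what the loss of Irp1 did to these genes in the testis. None of the 10 members passed the test between Irp1-/- and WT testes. With edgeR's quasi-likelihood test, adjusted by Benjamini-Hochberg over 16002 genes, 0 of 10 members had an adjusted p under 0.05, 0 had an unadjusted p under 0.05, and DESeq2 also called 0. Of all genes tested in this comparison, 1.02% were called and 12.1% had an unadjusted p under 0.05. The lowest adjusted p of a member was 0.522, that of Actg2, which averaged 247 ± 9.61 CPM in Irp1-/- testes against 235 ± 10.5 CPM in WT (SD, n = 4 each). Its log2 fold change of 0.07 had a 95% interval of -0.01 to 0.15.

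The fold changes of the members were small and went both ways. Of the log2 fold changes, 5 were above 0 and 5 below. The median was 0.06 for the 6 smooth muscle genes and -0.06 for the 4 endothelial genes, beside -0.00078 over all genes tested. Cnn1 had the highest value, 0.26 (95% interval -0.08 to 0.59), and Pecam1 the lowest, -0.22 (95% interval -0.58 to 0.15). Acta2 had a log2 fold change of 0.08 (95% interval -0.04 to 0.20) and Vwf one of -0.10 (95% interval -0.26 to 0.06). For Acta2, Myh11, Tagln, Actg2 and Vwf the interval ran no lower than -0.30 and no higher than 0.20 on the log2 scale, to 2 decimals, as did that of Cdh5 (-0.24 to 0.19), while those of Cnn1, Pecam1, Kdr and Des went beyond. Tagln was the only member whose groups did not overlap, at 10.4 ± 0.445 CPM against 11.4 ± 0.502 CPM (SD, n = 4 each). The log2 fold change of Tagln, -0.13 with a standard error of 0.085, had an adjusted p of 0.601 in edgeR, and 6.59% of all genes tested did not overlap between these groups.

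The second comparison sets Irp2-/- against WT testes, which share their WT samples with the first. Vwf rose and no other member passed the test. It averaged 22.3 ± 1.29 CPM with Irp2 deleted (SD, n = 3) and 17.3 ± 1.31 CPM in WT (SD, n = 4). This was a 1.29-fold difference, or a log2 fold change of 0.37 (standard error 0.078, 95% interval 0.21 to 0.53, adjusted p = 0.0127, edgeR), and Vwf ranked 106th of 16154 genes by p. It was called under all 7 other settings of normalization, filter, tool and design, with adjusted p from 0.00488 to 0.0252. The call was lost without Irp2-/- replicate 2 (log2 fold change 0.33, adjusted p = 0.124, edgeR) and without WT replicate 3 (0.33, adjusted p = 0.0511, edgeR). In all, 1 of 10 members had an adjusted p under 0.05, where 1.21% of all genes tested did, and 0.371% were called higher. It was also 1 of 10 whose groups did not overlap, where 9.31% of all genes tested had such groups.

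Besides Vwf, 3 members had an unadjusted p under 0.05, a level that 9.43% of all genes tested reached. Myh11 averaged 38.1 ± 3.003 CPM with Irp2 deleted (SD, n = 3) and 33.1 ± 2.60 CPM in WT (SD, n = 4), and its log2 fold change was 0.21 (95% interval 0.06 to 0.35, adjusted p = 0.213, edgeR). Cdh5 had 9.55 ± 0.574 CPM (SD, n = 3) and 8.09 ± 1.14 CPM (SD, n = 4), with a log2 fold change of 0.24 (95% interval 0.01 to 0.48, adjusted p = 0.503, edgeR). Actg2 went the other way, with 216 ± 13.9 CPM (SD, n = 3) against 235 ± 10.5 CPM (SD, n = 4) and a log2 fold change of -0.12 (95% interval -0.22 to -0.01, adjusted p = 0.433, edgeR). These differences did not pass the correction for all genes. The remaining members had log2 fold changes from -0.22 for Pecam1 to 0.17 for Cnn1, and the interval of each held 0. The median was 0.05 for the smooth muscle genes and 0.07 for the endothelial genes, beside 0.0033 over all genes.

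The third comparison sets the knockouts against each other and uses the Irp1-/- and Irp2-/- samples of the comparisons above. Vwf was lower and Actg2 higher in Irp1-/- than in Irp2-/- testes. For Vwf the means were 16.1 ± 1.12 CPM (SD, n = 4) and 22.3 ± 1.29 CPM (SD, n = 3), a log2 fold change of -0.47 (standard error 0.077, 95% interval -0.63 to -0.31, adjusted p = 0.000551, edgeR). It was called without any one sample and under all other settings, with adjusted p from 5.96e-05 to 0.00943. For Actg2 the means were 247 ± 9.61 CPM (SD, n = 4) and 216 ± 13.9 CPM (SD, n = 3), a 1.14-fold difference or a log2 fold change of 0.19 (standard error 0.052, 95% interval 0.08 to 0.30, adjusted p = 0.0351, edgeR). The Actg2 call was lost without Irp1-/- replicate 1, 2 or 7 or Irp2-/- replicate 2 or 3, with adjusted p from 0.0590 to 0.176, and held without Irp1-/- replicate 6 or Irp2-/- replicate 1.

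In this comparison 2 of 10 members were called, where 4.69% of all genes tested were. The share of all genes called higher in Irp1-/- was 2.92%, and lower 1.76%. Groups did not overlap for 4 of 10 members, and for 15.1% of all genes tested. Beside Vwf and Actg2 these were Myh11 and Cdh5, both lower in every Irp1-/- sample than in every Irp2-/- sample. Myh11 had 33.1 ± 0.320 CPM (SD, n = 4) in Irp1-/- testes and a log2 fold change of -0.21 (95% interval -0.33 to -0.08, adjusted p = 0.0618, edgeR). Cdh5 had 7.97 ± 0.390 CPM (SD, n = 4) and a log2 fold change of -0.27 (95% interval -0.47 to -0.06, adjusted p = 0.156, edgeR). Both missed the threshold. The median log2 fold change was 0.02 for the smooth muscle genes and -0.13 for the endothelial genes, beside -0.0019 over all genes.

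**Figure D3:**
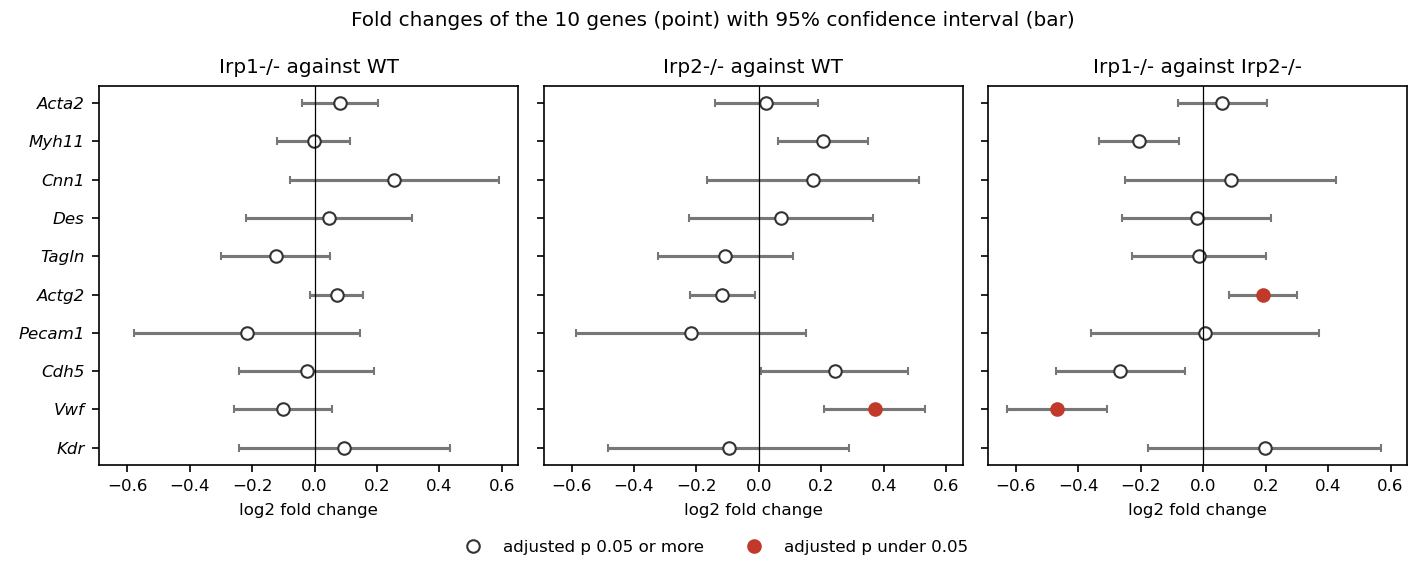
Log2 fold change of each gene (point) with its 95% confidence interval (bar) in the 3 comparisons, from edgeR's quasi-likelihood test, with filled points for an adjusted p under 0.05. Filled points are Vwf at 0.37 in Irp2-/- against WT, and Vwf at -0.47 and Actg2 at 0.19 in Irp1-/- against Irp2-/-.

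The genes of a group did not rise or fall as one. Summed, the 4 endothelial members gave 31.2 to 32.4 CPM in WT, 29.2 to 31.6 CPM in Irp1-/- and 36.1 to 38.8 CPM in Irp2-/- testes. Without Vwf the sum of the other 3 was 13.0 to 16.3, 13.8 to 14.3 and 14.8 to 16.01 CPM. The Irp2-/- sums then overlapped with WT but still lay above all Irp1-/- sums. The 6 smooth muscle members summed to 320.3 to 340.2 CPM in WT, 332 to 352 CPM in Irp1-/- and 298 to 341 CPM in Irp2-/- testes, most of it Actg2. Without Actg2 the sums were 87.5 to 103, 95.7 to 102 and 95.2 to 112 CPM and overlapped among all genotypes. The genes next to the called members on the chromosome gave no further calls in most comparisons. Of the 3 tested genes on each side of Vwf, 0 of 6 were called by edgeR in each comparison with WT and 1 of 6 between the knockouts, and around Actg2 it was 0 of 6 in each of the 3 comparisons.

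No other gene of the contractile apparatus or known from myoid cells passed the test. There were 23 further contractile genes, which include tropomyosins, smoothelin and leiomodin. Of these edgeR called 0 of 23 in Irp1-/- and 0 of 22 in Irp2-/- against WT and 0 of 23 between the knockouts. DESeq2 called 0 of the 18, 23 and 23 to which it gave an adjusted p. In the same order 2, 0 and 2 of the genes tested by edgeR had an unadjusted p under 0.05. Over all genes tested the shares at that level were 12.1%, 9.43% and 16.3%, which apply to the lists below as well. The medians of the log2 fold changes of this list were 0.06, 0.04 and -0.03. Mylk, the kinase that switches on smooth muscle myosin, had 59.3 ± 2.61 CPM in WT, 60.6 ± 1.98 CPM in Irp1-/- and 62.0 ± 3.07 CPM in Irp2-/- testes (SD, n = 4, 4 and 3). Flna, which crosslinks actin filaments, had 53.6 ± 1.86, 57.5 ± 2.49 and 55.0 ± 2.48 CPM (SD, n = 4, 4 and 3). These were the most abundant genes of that list, and their groups overlapped.

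Of 12 tested receptors, ligands and regulators known from myoid cells, such as the androgen receptor and the endothelin receptors, 0 were called in any comparison by edgeR or DESeq2. In Irp1-/- against WT DESeq2 gave an adjusted p to only 8 of them. The counts at an unadjusted p under 0.05 were 2 in Irp1-/- and 1 in Irp2-/- against WT and 0 between the knockouts. Pdgfra, a receptor for platelet-derived growth factor and one of the more abundant of them, had 12.4 ± 1.06 CPM in WT, 12.2 ± 1.87 CPM in Irp1-/- and 11.1 ± 1.07 CPM in Irp2-/- testes (SD, n = 4, 4 and 3). Of 9 tested genes of pericytes and vascular muscle, 0 were called in any comparison by either tool, with 2, 1 and 1 at an unadjusted p under 0.05. In Irp1-/- against WT DESeq2 gave an adjusted p to only 2 genes of that list, so it could call few of them there. Mcam (CD146) led that list, at 12.5 ± 1.38 CPM in WT, 10.9 ± 0.465 CPM in Irp1-/- and 13.1 ± 1.30 CPM in Irp2-/- testes (SD, n = 4, 4 and 3), followed by Abcc9, a subunit of potassium channels, at 3.72 ± 0.740, 4.25 ± 0.181 and 3.996 ± 0.608 CPM.

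Of the further endothelial genes, edgeR called 0 of 26 in Irp1-/- and 0 of 26 in Irp2-/- against WT. DESeq2 called 0 of the 10 and 28 to which it gave an adjusted p. In edgeR the counts at an unadjusted p under 0.05 were 1 and 2. Their median log2 fold changes were 0.04 and 0.09, and that between the knockouts was -0.0073. The whole list of 28 genes summed to 93.2 to 100.2 CPM in WT, 96.0 to 102.4 CPM in Irp1-/- and 101.2 to 103.4 CPM in Irp2-/- testes. All Irp2-/- sums were thus above all WT sums, while those of Irp1-/- overlapped with both. The most abundant were Sox17, a transcription factor, and Cd34, a surface sialomucin. Sox17 had 17.5 ± 1.47 CPM in WT, 16.6 ± 2.31 CPM in Irp1-/- and 19.9 ± 1.96 CPM in Irp2-/- testes (SD, n = 4, 4 and 3). Cd34 had 9.84 ± 0.556, 10.3 ± 0.476 and 10.3 ± 0.573 CPM. In WT Sox17 had 3.68 CPM per kb, against 1.93 for Cdh5, 1.08 for Vwf, 0.572 for Pecam1 and 0.316 for Kdr. Which cells the Sox17 RNA came from was not tested, so the sum cannot be read as endothelial RNA alone. Between the knockouts 1 of 27 was called, where 4.69% of all genes tested were. It was Tal1, a transcription factor of blood and endothelium. Tal1 rested on 9 to 12 counts in each Irp1-/- sample, 14 to 18 in WT and 21 to 24 in Irp2-/- samples. The log2 fold change of Tal1, -1.12 with a standard error of 0.3002, had an adjusted p of 0.0332 in edgeR, and DESeq2 did not call it (adjusted p = 0.148).

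Genes of the VEGF and angiopoietin pathways, to which the member Kdr belongs, gave 0 of 11 calls in each comparison with WT by edgeR. DESeq2 called 0 of the 7 and 13 to which it gave an adjusted p. In edgeR 5 and 2 had an unadjusted p under 0.05, where 12.1% and 9.43% of all genes tested did. Between the knockouts 1 of 12 was called by either tool, where edgeR called 4.69% of all genes tested. It was Flt4, the VEGF receptor of lymphatic vessels. Flt4 had 11.9, 13.8, 10.6 and 13.2 CPM in Irp1-/-, 13.7, 15.8, 15.4 and 16.7 CPM in WT and 15.6, 16.7 and 17.3 CPM in Irp2-/- testes. The knockouts did not overlap, and the log2 fold change of Irp1-/- against Irp2-/- was -0.42 (standard error 0.093, adjusted p = 0.00837, edgeR). The call was lost without Irp2-/- replicate 2 (adjusted p = 0.0676, edgeR). Nrp2, a co-receptor and with Flt4 one of the most abundant genes of the list, had 6.32 ± 0.510 CPM in WT, 7.02 ± 0.858 CPM in Irp1-/- and 5.64 ± 0.988 CPM in Irp2-/- testes (SD, n = 4, 4 and 3).

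Of a list of 5 lymphatic markers, edgeR tested 3 in each comparison. Against WT, 0 were called in either comparison by edgeR or DESeq2, with 2 in each at an unadjusted p under 0.05. DESeq2 gave an adjusted p to 2 of the 5 in Irp1-/- and to 4 in Irp2-/- against WT. Between the knockouts 2 were called lower in Irp1-/- than in Irp2-/- testes by both tools, where edgeR called 1.76% of all genes tested lower. These were Flt4, given above, and Prox1, the factor that sets lymphatic identity. Prox1 had 14.9, 15.3, 16.6 and 17.1 CPM in Irp1-/-, 15.6, 17.9, 19.6 and 21.2 CPM in WT and 21.1, 21.4 and 21.7 CPM in Irp2-/- testes. WT lay between the knockouts and overlapped with both. The log2 fold change of Irp1-/- against Irp2-/- was -0.42 (standard error 0.075, adjusted p = 0.00129, edgeR) and was called without any one sample. Like Vwf, Prox1 and Flt4 were lower in every Irp1-/- sample than in every Irp2-/- sample. Groups did not overlap for 15.1% of all genes tested in this comparison. In WT Prox1 had 2.21 and Flt4 1.87 CPM per kb. The endothelial members had 1.93 (Cdh5), 1.08 (Vwf), 0.572 (Pecam1) and 0.316 (Kdr) CPM per kb. Whether the RNA of Prox1 and Flt4 came from lymphatic vessels was not tested.

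**Figure D4:**
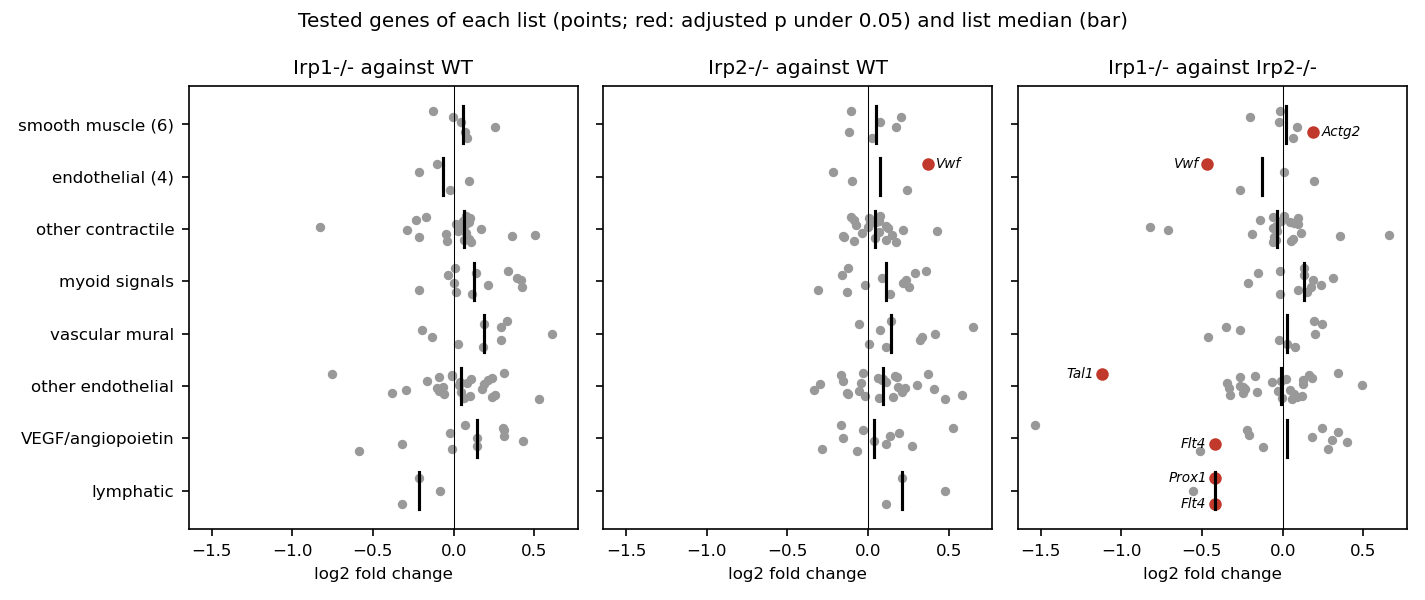
Log2 fold change of every tested gene of 8 lists (grey points; red and named for an adjusted p under 0.05 in edgeR) with the list's median (black bar), in the 3 comparisons. No gene is red in Irp1-/- against WT and Vwf alone is red in Irp2-/- against WT, while Vwf, Actg2, Tal1, Prox1 and Flt4 (drawn in both of its lists) are red between the knockouts.

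Some markers of other cell types were called between the same groups, and their part in the results above was not tested. Between the knockouts, where Vwf and Actg2 were called, edgeR called 2 of 7 Leydig cell markers (Hsd3b1 and Insl3) higher in Irp1-/- testes. It also called 3 of 10 Sertoli cell markers (Amh, Fshr and Rhox5) higher, where 2.92% of all genes tested were. DESeq2 called the same 2 Leydig markers and 0 Sertoli markers. Against WT, 1 Leydig marker (Hsd17b3) and 1 Sertoli marker (Clu) were called higher in Irp1-/- testes by edgeR, and DESeq2 called these and Hsd3b1. Of all genes tested in that comparison edgeR called 1.02% in either direction. The Leydig list summed to 937 to 1138 CPM in Irp1-/-, 721 to 943 CPM in Irp2-/- and 699 to 983 CPM in WT testes, and the Sertoli list to 1188 to 1329, 1071 to 1217 and 1072 to 1150 CPM. Of the 6 spermatid markers 0 were called by edgeR or DESeq2 in any comparison, with 1 at an unadjusted p under 0.05 in each comparison with WT and 0 between the knockouts. The spermatid markers summed to 14705 to 17335 CPM in Irp1-/-, 12795 to 15711 CPM in Irp2-/- and 15325 to 16130 CPM in WT testes. The 6 spermatocyte markers summed to 855 to 897 CPM in Irp1-/-, below the 904 to 939 CPM of WT and the 901 to 935 CPM of Irp2-/- testes. Of these 0 were called by edgeR or DESeq2 in any comparison, with 3 in Irp1-/- against WT, 0 in Irp2-/- against WT and 1 between the knockouts at an unadjusted p under 0.05. Of the platelet markers, which bear on Vwf since megakaryocytes also make it, edgeR called 0 of 4 tested in any comparison (1, 1 and 2 at an unadjusted p under 0.05) and DESeq2 called 1 between the knockouts. The list summed to 11.8 to 16.8 CPM in Irp1-/-, 10.4 to 14.0 CPM in Irp2-/- and 11.1 to 13.7 CPM in WT testes.

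Over the 11 samples, members of the same cell type did not track each other closely. Pearson's r of log2 CPM was computed for all 45 pairs, with a permutation test of each. None of the 45 had an adjusted p under 0.05 by Pearson's r or by Spearman's rho, and 5 had an unadjusted p under 0.05 by Pearson's r. The median r was 0.16 among the 15 smooth muscle pairs, -0.14 among the 6 endothelial pairs and -0.14 among the 24 mixed pairs. The coefficient of variation from counting alone was 13.6% for Kdr, 12.8% for Pecam1 and 9.49% for Des, against 15.04%, 19.7% and 11.5% as measured. Such noise weakens r, so low values for pairs with these genes do not show that their RNAs vary apart. The lowest r was that of Actg2 with Cdh5, at -0.82 (rho -0.76, permutation p = 0.00196 and 0.00862, adjusted p = 0.0882 and 0.129). It was -0.78 without the 2 samples farthest from the median of Actg2 and -0.68 after the mean of each genotype was subtracted. Vwf and Cdh5, both endothelial, had r = 0.46 over all samples and -0.64 after that subtraction (adjusted p = 0.474 and 0.159, permutation test).

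With the genotype means subtracted, 1 pair passed, the actin Acta2 with the myosin Myh11. Its r was then 0.87 (adjusted p = 0.0283, permutation test), against 0.45 (rho 0.43, adjusted p = 0.474 and 0.611, permutation test) before. The permutations moved values freely across genotypes and took no account of the means subtracted. Adjusted p-values after the subtraction are therefore too small, and whether this pair would pass a test that allows for it is not known.

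**Figure D5:**
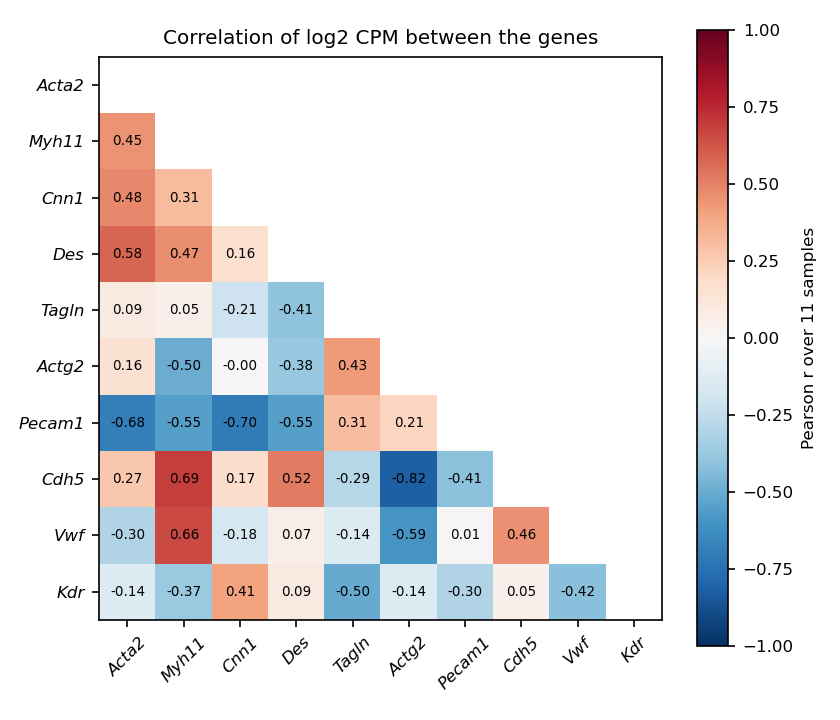
Pearson's r of log2 CPM over the 11 samples for each of the 45 pairs of genes, coloured from -1 (blue) to 1 (red). The cell of Actg2 with Cdh5 holds the lowest value, -0.82, and that of Myh11 with Cdh5 the highest, 0.69.

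The genes whose log2 CPM was most like that of a member over the 11 samples were searched among 14985 genes with a mean of at least 1 CPM. For Acta2 the 5 with the highest Pearson's r were Cmas (0.93), Ddit4 (0.92), Hif1a (0.91), Mxra7 (0.91) and Rce1 (0.90). For Pecam1 they were Fkbp4 (0.90), Ggnbp1 (0.90), Doc2a (0.89), C1qtnf1 (0.89) and Zfp830 (0.89). No contractile or endothelial gene of the lists above was among them. For Actg2, a search added after its values were seen, they were 4930505A04Rik (0.98), Zpbp (0.96), Ppp1r2-ps9 (0.95), 4930578I06Rik (0.95) and BB014433 (0.94). After the mean of each genotype was subtracted, r with Actg2 was 0.96, 0.95, 0.94, 0.91 and 0.86 for these genes in the same order. Between Actg2 and Acta2 r was 0.16 over all samples and -0.06 after that subtraction. Zpbp encodes a protein of the sperm acrosome that binds the zona pellucida. Which cells the Actg2 RNA came from was not tested. For Vwf, added likewise, they were Vezt (0.95), Slamf9 (0.94), 4933407I05Rik (0.93), Ptov1 (0.93) and 4931428F04Rik (0.92). With the mean of each genotype subtracted, r with Vwf was 0.79, 0.84, 0.48, 0.61 and 0.62 for these genes in the same order. These values describe the 11 samples, which share library preparation and normalization, and the search picked the highest of many.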

How the data were processed

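RNA from 20-week-old decapsulated testes was enriched for polyadenylated transcripts and prepared with a stranded kit. It was sequenced as 50-base read pairs. The authors deposited raw read counts per gene, which came from nf-core's RNA-seq workflow with mm10, and the counting tool is not given in the sources used here. The submitters' processing notes name bcl2fastq 2.20.0.422 and DESeq2. All 11 columns were used and assigned by their labels.

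Counts were tested with edgeR 4.0.16 in R 4.3.3 (TMM, filterByExpr, robust quasi-likelihood test), with the 2 genotypes compared in each fit. P-values were adjusted by Benjamini-Hochberg over all genes tested, and genes under 0.05 were called. The standard error of a log2 fold change is its size over the square root of F. CPM were scaled by TMM over the 11 samples. Levels per kb used the exon union of GENCODE M21 (GRCm38), which can differ from the authors' annotation. Correlations were taken on log2 CPM (prior count 2) with 100000 permutations (two-sided). The step was tested on simulated data. Alternatives were DESeq2 1.42.0, other normalizations and filters, a fit of all samples, a replicate block, and leaving out each sample. DESeq2 gave no adjusted p to some listed genes, which it therefore could not call.

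Members and lists were chosen with earlier results of these data known, and 2 lists (partners of Vwf, platelet markers) were added after its values were seen. Named were all members, the targeted genes, up to 3 called genes per list and direction, the 2 most abundant genes of 5 lists, the 5 genes most like Acta2 and Pecam1, and other cell type markers where at 0 or moving with a result. Some genes covered by this rule are not reported here.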

Additional observations from a re-analysis of the deposited data

Results flagged for a closer look

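In Irp1-/- testes, Actg2 had 233 CPM in replicate 6 and 250.0 to 253 CPM in the other 3 samples. The gap to the nearest sample was 0.863 of the range of the group, above Dixon's critical value for 4 samples, which marked it as far from the others. Replicate 6 is also the sample whose label carries the letter R. Of 20 groups of 4 samples tested (10 genes in WT and Irp1-/-), 1 was marked, and chance alone marks about 1. The call of Actg2 between the knockouts held without this sample.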

How the results depend on the processing

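Of the values for single genes under an alternative, 480 changed neither sign nor call, 23 lost the call and 25 changed sign, and the cause was not tested. The counts of calls and of correlated pairs stayed within 1.5 times their value in 84 cases and moved in 17. Whether equal replicate numbers pair the samples cannot be decided from 2 or 3 shared numbers per comparison. Deviations of equal numbers correlated at 0.04, 0.12 and 0.05 for Irp2-/- with WT, where 1 of 3 numbers correlated best with its own. The other comparisons share 2 numbers, of which both did so for Irp1-/- with WT (0.09 and 0.04) and number 1 did so between the knockouts (0.07 and -0.02). With the replicate number as a block, 439 genes were called in Irp1-/- against WT in place of 164, and 1 member (Vwf) in place of 2 between the knockouts, where Actg2 had an adjusted p of 0.109 in edgeR. Log2 fold changes that reversed with the block were 0.080 for Myh11 and 0.028 for Cdh5 in Irp1-/- against WT, and -0.0090 for Acta2, -0.22 for Cnn1 and 0.00063 for Des between the knockouts. Without composition factors Myh11 was 0.0093 in Irp1-/- against WT and Pecam1 -0.0038 between the knockouts, and with at least 10 counts in every sample Myh11 was 0.00011 in the former. After the genotype means were subtracted, 1 of 45 pairs passed in place of 0, by a test whose p-values are then too small. Leaving out 1 sample gave 55 to 216 called genes in Irp1-/- against WT (55 without Irp1-/- replicate 1, 102 without Irp1-/- replicate 6, 84 and 106 without WT replicate 2 and 4), 118 to 223 in Irp2-/- against WT (118 without Irp2-/- replicate 2), and 414 to 763 between the knockouts (414 without Irp2-/- replicate 2, 471 without Irp1-/- replicate 1). Called members were 0 to 0, 0 to 1 and 1 to 2. In Irp1-/- against WT, log2 fold changes then ranged from -0.042 to 0.044 for Myh11, -0.068 to 0.15 for Des and -0.072 to 0.077 for Cdh5. In Irp2-/- against WT they were -0.074 to 0.091 for Acta2, -0.048 to 0.17 for Des and -0.19 to 0.051 for Kdr. Between the knockouts they were -0.0056 to 0.16 for Acta2, -0.026 to 0.19 for Cnn1, -0.054 to 0.019 for Des, -0.082 to 0.12 for Tagln and -0.15 to 0.10 for Pecam1. Aco1 lost its call with the block (adjusted p = 0.314 against WT and 0.368 between the knockouts, edgeR). Tal1, whose other settings were added after it was seen to be called, had an adjusted p of 0.161 with the block in edgeR and of 0.0374 to 0.143 without 1 sample. With counts from 38 per sample, differences in Kdr, Pecam1 and Cnn1 have the widest intervals.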

Other observations

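Genes linked to Vwf or to clotting factor VIII, which it carries, were looked at after its values were seen. Of 6 tested (F8, Selp, Stab1, Stab2, Lman1 and Mcfd2), 0 were called by edgeR or DESeq2 in any comparison. In Irp1-/- against WT DESeq2 gave an adjusted p to only 4 of them. The counts at an unadjusted p under 0.05 in edgeR were 0, 0 and 1. Stab2, a receptor that clears Vwf from the blood, was that one, with a log2 fold change of -0.28 in Irp1-/- against Irp2-/- (adjusted p = 0.148, edgeR). F8, which encodes factor VIII, had log2 fold changes of -0.06 and -0.09 in Irp1-/- and Irp2-/- against WT and of 0.03 between the knockouts, with wide intervals, the last from -0.41 to 0.44. Of 4 tested platelet markers, edgeR called 0 in any comparison, with 1, 1 and 2 at an unadjusted p under 0.05, while DESeq2 called 1 between the knockouts, Gp1bb. In edgeR the log2 fold change of Gp1bb was 0.56 in Irp1-/- against Irp2-/- (adjusted p = 0.165) and -0.19 in Irp2-/- against WT (adjusted p = 0.804), opposite in sign to those of Vwf. That of Itga2b had the same sign as Vwf, at -0.67 (adjusted p = 0.1497, edgeR) and 0.76 (adjusted p = 0.260, edgeR), and its groups did not overlap in either comparison.

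The WT sample numbered 1 had the lowest value of 4 of the 10 members (Acta2, Myh11, Cdh5 and Des) and the highest of Pecam1. Irp2-/- replicate 1 had the highest of 3 members (Acta2, Myh11 and Tagln) and the lowest of Kdr. The ratio of Acta2 to Actg2 counts, which needs no normalization between samples, was 15.4% in WT replicate 1 and 21.1% in Irp2-/- replicate 1, the extremes of the 11 samples.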
